A study of Mus musculus with 12 samples.

Results

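NRF2 is the transcription factor that switches on antioxidant and detoxifying genes, and 10 genes of its pathway were followed in mouse bone-marrow-derived macrophages under endoplasmic reticulum (ER) stress and inflammatory stimulation. They are the rows whose symbol equals Nfe2l2, Keap1, Sqstm1, Gclc, Gclm, Gsr, Txnrd1, Srxn1, Prdx1 or Nqo1, which are 10 of the 24346 genes in the table, and all 10 had a row and passed the filter on low values. The wild-type bone marrow cells had grown for 7 days in M-CSF, which drives macrophage differentiation. In 3 libraries each they received tunicamycin (5 ug/ml) for 3 h before lipopolysaccharide (LPS, 1 ng/ml) for 3 h, tunicamycin alone, LPS alone, or no treatment (control). Tunicamycin blocks N-linked glycosylation and so fills the ER with unfolded protein, and LPS, from the outer membrane of Gram-negative bacteria, is recognised through TLR4. The exposure time of the tunicamycin-only cells, the mouse strain, age and sex, and whether replicates were separate animals or cultures are not given in the sources used here, so p-values measure the spread between these libraries only. Where both agents are compared with tunicamycin alone, an LPS effect and a difference in tunicamycin exposure, if any, cannot be told apart.

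In unstressed cells KEAP1 holds NRF2 (the product of Nfe2l2) on a ubiquitin ligase that sends it to the proteasome. Oxidants and electrophiles modify KEAP1, and the autophagy receptor p62 (the product of Sqstm1) can bind KEAP1 in its place, so that NRF2 escapes, enters the nucleus, pairs with a small MAF protein and binds antioxidant response elements (AREs). Much of this control acts on the protein, which RNA levels do not show. In macrophages the pathway is known for limiting oxidative damage and for restraining inflammatory gene expression. Sqstm1 is also a known NRF2 target, and is induced by other stress and inflammatory pathways as well. The remaining genes make and recycle glutathione (Gclc, Gclm, Gsr), serve the thioredoxin and peroxiredoxin system (Txnrd1, Srxn1, Prdx1) or reduce quinones (Nqo1).

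Promoters are shown first because the ARE is the shared sequence by which the pathway is defined. RefSeq windows of GRCm38.p6, the assembly called mm10, from 250 bases before to 50 after a start site, were found for 8 of the 10 genes, among which Txnrd1 has 3 windows, and Gclc and Gsr were not among them. The ARE core was searched as TGACNNNGC and in the form TGAGNNNGC, on both strands, and at least 1 form lay in a window of 5 of the 8 genes (Nfe2l2, Gclm, Txnrd1, Srxn1 and Prdx1). Counted by window, as the background is, this was 5 of the 10 windows. Of 32851 mouse windows of that length, 12.4% held the first form, 17.6% the second and 27.8% either. The 5 windows below belong to the genes that the results turn on, and capitals mark ARE core matches. That of Nfe2l2 (chr2:75704614-75704913, minus strand) had 1 match, beginning 240 bases before the start. Of the 3 windows of Txnrd1, the 1 shown (chr10:82858956-82859255, plus strand) had 1 match, and the others held neither form. The window of Gclm (chr3:122245307-122245606, plus strand) had 1, and that of Srxn1 (chr2:152105274-152105573, plus strand) had 3. One of the 3 in Srxn1, 45 bases before the start, overlaps an AP-1 site (TGANTCA, both strands, in 7.81% of all windows). In Prdx1, whose window is not shown, the match beginning 133 bases before the start also overlaps an AP-1 site. The window of Sqstm1 (chr11:50210771-50211070, minus strand) held neither form, which says only that these letters are not in these 300 bases. None of the 10 windows held a C/EBP-ATF element searched as TGATGNAA (both strands, 3.97% of all windows).
Nfe2l2: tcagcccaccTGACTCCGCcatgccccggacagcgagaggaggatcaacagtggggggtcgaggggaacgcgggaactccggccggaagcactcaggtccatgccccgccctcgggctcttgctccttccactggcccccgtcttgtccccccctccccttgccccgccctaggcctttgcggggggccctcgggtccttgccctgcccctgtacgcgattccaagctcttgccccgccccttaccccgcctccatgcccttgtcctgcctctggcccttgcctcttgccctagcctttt
Txnrd1: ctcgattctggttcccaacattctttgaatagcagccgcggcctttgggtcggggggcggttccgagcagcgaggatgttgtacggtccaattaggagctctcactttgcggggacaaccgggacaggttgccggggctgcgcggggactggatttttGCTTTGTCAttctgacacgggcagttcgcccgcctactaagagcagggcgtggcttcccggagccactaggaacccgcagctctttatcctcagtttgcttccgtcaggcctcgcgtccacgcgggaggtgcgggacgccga
Gclm: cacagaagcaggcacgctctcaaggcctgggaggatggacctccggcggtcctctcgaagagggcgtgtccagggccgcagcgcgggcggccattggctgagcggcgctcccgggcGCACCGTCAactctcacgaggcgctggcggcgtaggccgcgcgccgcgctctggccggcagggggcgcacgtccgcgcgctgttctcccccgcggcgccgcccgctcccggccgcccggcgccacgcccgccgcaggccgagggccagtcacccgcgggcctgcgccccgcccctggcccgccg
Srxn1: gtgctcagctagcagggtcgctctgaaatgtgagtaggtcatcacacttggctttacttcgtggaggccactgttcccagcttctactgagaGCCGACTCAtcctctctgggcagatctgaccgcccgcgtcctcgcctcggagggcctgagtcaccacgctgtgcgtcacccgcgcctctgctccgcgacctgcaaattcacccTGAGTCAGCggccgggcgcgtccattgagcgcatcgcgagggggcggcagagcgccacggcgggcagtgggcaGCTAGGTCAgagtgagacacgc
Sqstm1: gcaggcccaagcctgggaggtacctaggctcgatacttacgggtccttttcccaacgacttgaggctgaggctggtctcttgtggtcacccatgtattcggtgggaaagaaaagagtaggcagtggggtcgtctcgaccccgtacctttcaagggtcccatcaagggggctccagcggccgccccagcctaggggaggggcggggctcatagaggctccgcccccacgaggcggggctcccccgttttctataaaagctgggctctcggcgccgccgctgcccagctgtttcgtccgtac

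Values are FPKM, fragments per kilobase of transcript after a scaling of each library by an unknown method. Division by transcript length lets levels of different genes be compared, while comparisons between libraries rest on that scaling. Folds were computed from log2(FPKM + 1) and carry the SE of the log2 value; that scale understates the change of low genes. The test was limma over 10311 genes with Benjamini-Hochberg adjustment over all of them, and a gene passed at an adjusted p under 0.05. Summed FPKM was 561108 to 685010 per library, read depth was unknown, and between 9507 and 9741 genes reached 1 FPKM. The treatments were visible in their usual genes. Hspa5, the ER chaperone BiP, averaged 13531 and 9594 FPKM with tunicamycin plus LPS and tunicamycin, against 1198 FPKM with LPS and 841 FPKM in controls. Tnf, the gene of tumour necrosis factor, averaged 1048 and 743 FPKM with tunicamycin plus LPS and with LPS, against 6.10 FPKM with tunicamycin and 2.94 FPKM in controls. The other checks were not highest with both agents. Ddit3 averaged 1093 FPKM with both, 1601 FPKM with tunicamycin, 42.4 FPKM with LPS and 45.6 FPKM in controls. Il1b averaged 291, 0.352, 806 and 0.563 FPKM in that order, lower with both agents than with LPS (limma log2 -1.48, adjusted p = 1.63e-06). All 10 macrophage markers passed the filter, with a summed 14498 to 24187 FPKM per library, of which Lyz2 alone made 9193 to 18966 FPKM. Of these 10, 1 was higher and 4 were lower with tunicamycin against control (lowest Cx3cr1, log2 -2.24), where 34.5% of all genes passed. With LPS against control 1 was higher and 1 lower, where 18.4% of all genes passed, so that this share is near the background. With both agents against LPS 0 were higher and 4 lower, where 28.9% of all genes passed. Summed neutrophil markers (5 of 7 passed) were 17.1 to 31.7 FPKM with tunicamycin plus LPS, 14.3 to 25.8 FPKM with tunicamycin, 190.3 to 316 FPKM with LPS and 86.7 to 126 FPKM in controls. Summed stromal markers (5 of 7 passed) were 16.7 to 45.4, 20.1 to 38.5, 8.81 to 15.4 and 7.97 to 10.3 FPKM in the same order. The part of such cells in the results was not tested. Summed markers reached at most 3.12 FPKM per library for B and plasma cells, 1.54 FPKM for T and NK cells, 1.00 FPKM for mast cells and basophils and 8.78 FPKM for dendritic cells. Of these lists 1 B-cell marker, 1 T-cell marker and 2 dendritic markers passed the filter, while Ms4a1, Mzb1, Cd8a, Ncr1, Klrb1c, Cpa3, Mcpt4 and Ms4a2 were listed at 0 in all 12 libraries. The 2 dendritic markers were higher with LPS against control, with a summed list of 3.91 to 8.78 FPKM against 0.179 to 0.594 FPKM. With both agents against control, where 40.8% of all genes passed, the B-cell marker was lower and 1 dendritic marker higher. The T-cell marker gave no call. In bulk RNA, fewer cells of a type and less RNA per cell cannot be told apart.

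The 10 genes did not move as one group. Sqstm1 and Txnrd1 rose with each agent and were highest with both, Nfe2l2 rose with LPS, Gclc fell with LPS, and Gclm rose with tunicamycin. For Txnrd1 the call for both agents against LPS was lost in 8 of 21 alternatives. Keap1 and Nqo1 passed in none of the 6 comparisons. For LPS against control 3 of the 10 rose and 1 fell, where 18.4% of all genes passed (10.5% higher and 7.86% lower), and the median difference was 0.18 on the log2 scale, against 0.0022 over all genes. For tunicamycin against control 3 rose and 0 fell, where 34.5% of all genes passed (17.9% higher and 16.6% lower), so that this share is near the background. Its median was 0.08, against 0.03 over all genes. For tunicamycin plus LPS against control, 6 rose and 1 fell, where 40.8% of all genes passed (20.7% higher and 20.2% lower; median 0.50, against 0.0013 over all genes). Of the calls over all genes, 57.2% were higher with LPS and 50.6% with both agents against control, or 48% and 44.1% with quantile normalization. These 3 comparisons share the control libraries.

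**Figure D1:**
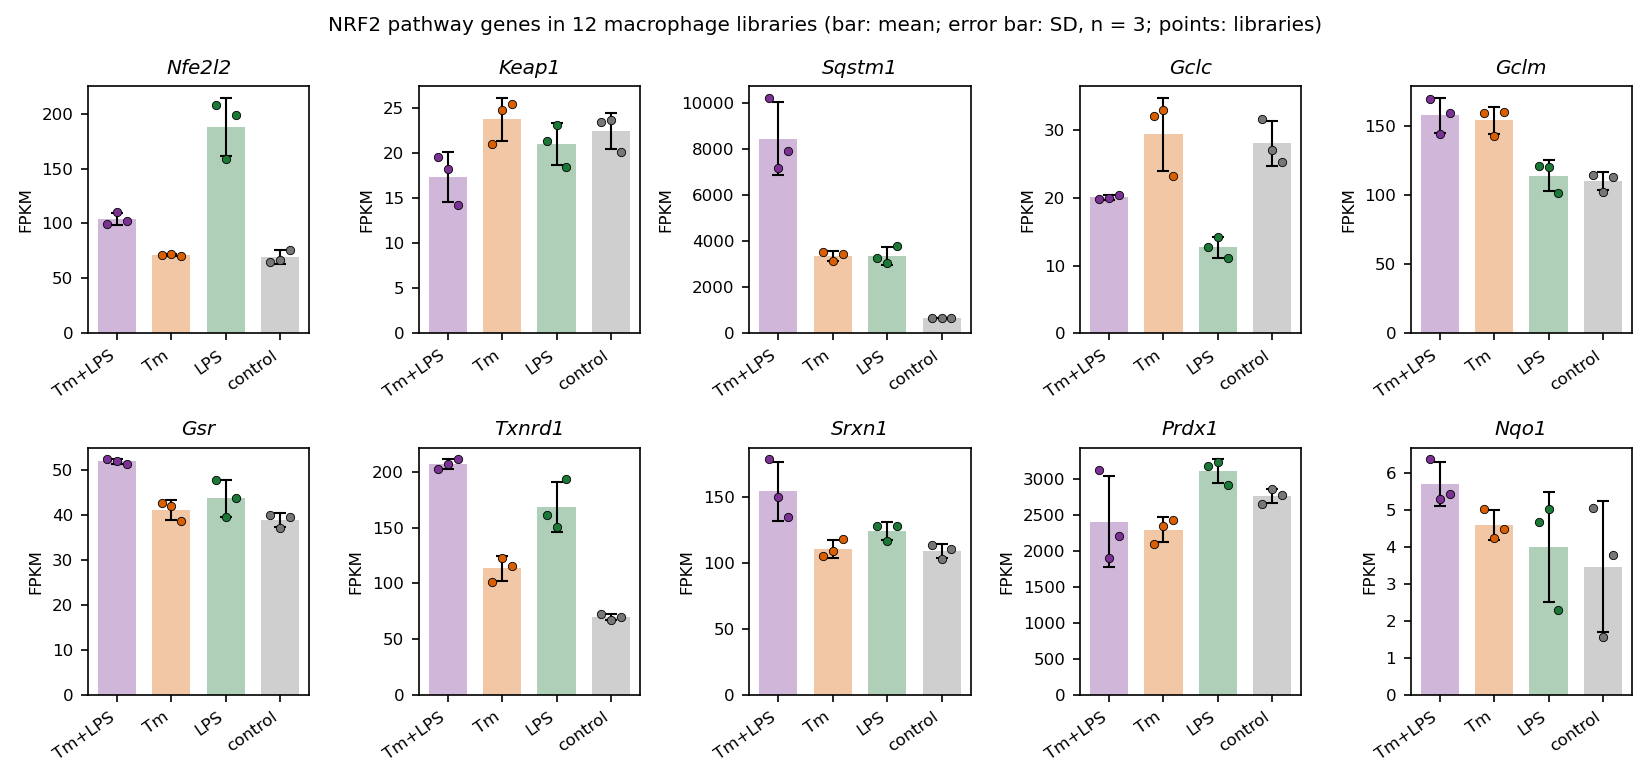
FPKM (y axis, from 0) of each gene in the libraries with tunicamycin plus LPS (Tm+LPS), tunicamycin (Tm), LPS and no treatment (control), with bars for means, error bars for the SD (n = 3) and points for libraries. The 3 Tm+LPS libraries of Sqstm1 lie between 7172 and 10212 FPKM, above the other 9, while the LPS libraries of Nfe2l2 lie highest and those of Gclc lowest.

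Nfe2l2 (ENSMUSG00000015839.6, chromosome 2, 75675513 to 75704641, minus strand), the gene of NRF2 itself, had 99.9, 110.0 and 102.5 FPKM with tunicamycin plus LPS. It had 71.1, 72.5 and 70.7 FPKM with tunicamycin, 208, 158 and 198 FPKM with LPS, and 64.8, 67.2 and 76.2 FPKM in controls. The LPS libraries were the highest, those with both agents stood between, and the tunicamycin and control libraries overlapped. LPS against control gave a 2.67-fold rise (log2 1.42 ± 0.11, adjusted p = 3.29e-08), and tunicamycin against control gave log2 0.04 ± 0.11 (adjusted p = 0.794). Both agents against tunicamycin gave a 1.45-fold rise (log2 0.54 ± 0.11, adjusted p = 0.00237). The level with both agents was 1.79-fold lower than with LPS (log2 -0.84 ± 0.11, adjusted p = 2.43e-05). The interaction (the LPS change in tunicamycin-treated cells less the LPS change in untreated ones) was log2 -0.88 ± 0.15 (adjusted p = 0.00255). It also rests on the tunicamycin-only cells, so their unknown exposure time limits it in the same way.

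Keap1 (ENSMUSG00000003308.15, chromosome 9, 21229730 to 21239361, minus strand), the adaptor that presents NRF2 to its ubiquitin ligase, had 19.5, 18.2 and 14.2 FPKM with tunicamycin plus LPS. It had 20.99, 24.8 and 25.4 FPKM with tunicamycin, 21.4, 23.1 and 18.5 FPKM with LPS, and 23.4, 23.7 and 20.2 FPKM in controls. The libraries with both agents lay below those with tunicamycin and below controls, and overlapped those with LPS. Against tunicamycin the difference was log2 -0.44 ± 0.15 (adjusted p = 0.0574) and against control log2 -0.36 ± 0.15 (adjusted p = 0.0632), neither of which passed. Both passed with quantile normalization (adjusted p = 0.0366 and 0.0214) and without replicate 1 of tunicamycin plus LPS (adjusted p = 0.0409 and 0.0384). The ratio of Nfe2l2 to Keap1 FPKM within a library averaged 6.12 ± 1.06 with both agents, 3.03 ± 0.32 with tunicamycin, 9.09 ± 2.01 with LPS and 3.13 ± 0.57 in controls (SD, n = 3 each). Neither LPS-treated group overlapped the controls in this ratio, while tunicamycin alone did. A test of 3 libraries against 3 cannot go below an exact permutation p of 0.1, so the ratios are given without one.

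Sqstm1 (ENSMUSG00000015837.15, chromosome 11, 50199366 to 50210827, minus strand), which encodes p62, had 10212, 7172 and 7910 FPKM with tunicamycin plus LPS. It had 3529, 3118 and 3446 FPKM with tunicamycin, 3257, 3046 and 3794 FPKM with LPS, and 664, 650.2 and 668 FPKM in controls. All libraries of each treated group were above all controls, the 2 single treatments overlapped, and both agents together were above either. By mean FPKM it ranked sixth of 10311 genes with both agents and at place 10 with tunicamycin, 14 with LPS and 100 in controls. Its share of the summed FPKM was 1.19% to 1.53% with both agents, 0.556% to 0.628% with tunicamycin, 0.445% to 0.569% with LPS and 0.102% to 0.110% in controls. Both agents against control gave a 12.6-fold rise (log2 3.66 ± 0.11, adjusted p = 2.43e-13), beside 5.08-fold for tunicamycin and 5.07-fold for LPS against the same controls. Adding tunicamycin to LPS raised it 2.49-fold (log2 1.31 ± 0.11, adjusted p = 3.52e-07). A gene on the opposite strand, Mrnip (listed as 3010026O09Rik), overlaps it and had 2.61 to 12.2 FPKM, and the sources used here do not say whether the counting used strand.

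For Sqstm1 the interaction was log2 -1.03 ± 0.16 (adjusted p = 0.0011), so on the log scale both agents together gave less than the product of their single folds. On the FPKM scale the order differed: the measured mean of 8431 FPKM lay above the 6069 FPKM that the 2 single differences add up to, and below the 17141 FPKM of the product. For Nfe2l2 the measured 104.1 FPKM was below both the sum (190.2 FPKM) and the product (194 FPKM). Txnrd1 measured 207 FPKM, with a sum of 212 FPKM and a product of 274 FPKM, and its interaction did not pass (log2 -0.38 ± 0.15, adjusted p = 0.212). Gclc measured 20.1 FPKM, above both the sum (14.0 FPKM) and the product (13.3 FPKM), and its interaction did not pass either (log2 0.57 ± 0.22, adjusted p = 0.202). Sqstm1 and Nfe2l2 were the 2 of 10 genes that passed this test, both negative, where 3.37% of all genes passed, 1.41% higher and 1.96% lower. The median over the 10 was log2 -0.07, against -0.03 over all genes.

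**Figure D2:**
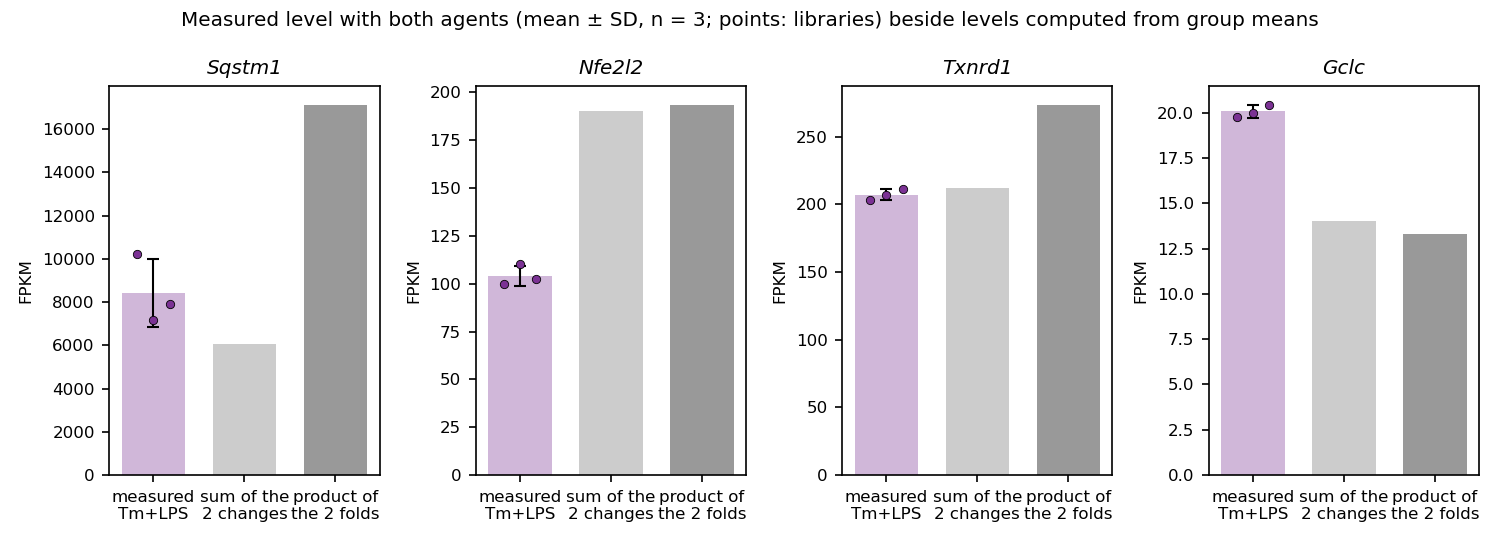
FPKM (y axis, from 0) measured with tunicamycin plus LPS, as mean ± SD with the 3 libraries as points, beside the level that the group means give if the 2 single changes add and if the 2 single folds multiply. Sqstm1 at 8431 FPKM stands between 6069 and 17141 FPKM, Nfe2l2 below both computed levels and Gclc above both.

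The glutathione genes went separate ways. Gclc (ENSMUSG00000032350.9, chromosome 9, 77754535 to 77794485, plus strand) encodes the catalytic subunit of glutamate-cysteine ligase, the rate-limiting enzyme of glutathione synthesis. It had 19.8, 20.0 and 20.5 FPKM with tunicamycin plus LPS, 32.0, 33.0 and 23.2 FPKM with tunicamycin, 12.7, 14.2 and 11.1 FPKM with LPS, and 31.7, 27.1 and 25.4 FPKM in controls. LPS libraries were the lowest, those with both agents lay next, and tunicamycin and control libraries overlapped above them. LPS against control gave a 2.12-fold fall (log2 -1.09 ± 0.15, adjusted p = 5.63e-05). Tunicamycin plus LPS against LPS gave a 1.55-fold rise (log2 0.63 ± 0.15, adjusted p = 0.00565). Both agents against tunicamycin gave log2 -0.51 ± 0.15 (adjusted p = 0.0312), which was lost in the fit to those 6 libraries (0.0566) and without tunicamycin replicate 1 (0.116) or 2 (0.143) or replicate 1, 2 or 3 of tunicamycin plus LPS (0.0683, 0.0613 and 0.0615, all adjusted p). Both agents against control gave log2 -0.46 ± 0.15 (adjusted p = 0.0247), lost without control replicate 1 (0.106) or replicate 1 (0.054) or 2 (0.0504) of tunicamycin plus LPS.

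Gclm (ENSMUSG00000028124.15, chromosome 3, 122245557 to 122270732, plus strand), the modifier subunit of the same enzyme, had 169, 144 and 159 FPKM with tunicamycin plus LPS. It had 159, 142 and 160 FPKM with tunicamycin, 121, 119.7 and 101 FPKM with LPS, and 114.7, 102 and 113 FPKM in controls. The groups with tunicamycin overlapped each other and lay above those without it, which also overlapped. Tunicamycin against control gave a 1.39-fold rise (log2 0.48 ± 0.10, adjusted p = 0.00148), and tunicamycin plus LPS against LPS a 1.38-fold rise (log2 0.47 ± 0.10, adjusted p = 0.00237). LPS gave log2 0.05 ± 0.10 against control (adjusted p = 0.822). The ratio of Gclm to Gclc FPKM averaged 7.85 ± 0.67 with both agents, 5.39 ± 1.33 with tunicamycin, 9.00 ± 0.53 with LPS and 3.95 ± 0.45 in controls (SD, n = 3 each). Neither LPS-treated group overlapped the controls in this ratio, and tunicamycin alone did. The annotated pseudogene Gm6061 lies within Gclm and has no row of that symbol in the table.

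Gsr (ENSMUSG00000031584.16, chromosome 8, 33652523 to 33698163, plus strand), glutathione reductase, which regenerates reduced glutathione with NADPH, had 52.4, 52.0 and 51.5 FPKM with tunicamycin plus LPS. It had 42.7, 42.1 and 38.7 FPKM with tunicamycin, 47.9, 39.6 and 43.7 FPKM with LPS, and 40.1, 37.1 and 39.6 FPKM in controls. The libraries with both agents were above all others, and the remaining 3 groups overlapped. Both agents against control gave a 1.33-fold rise (log2 0.41 ± 0.11, adjusted p = 0.00535). Against LPS the difference was log2 0.25 ± 0.11 (adjusted p = 0.0909), and it passed with no filter on low values (adjusted p = 0.0493). Against tunicamycin it was log2 0.33 ± 0.11 (adjusted p = 0.0434). That call was lost in 13 of 21 alternatives, among them the replicate number as a block (0.0513), quantile normalization (0.183) and leaving out any 1 of control replicates 1 and 3, LPS replicate 3 or the 6 libraries compared (adjusted p = 0.0502 to 0.161).

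**Figure D3:**
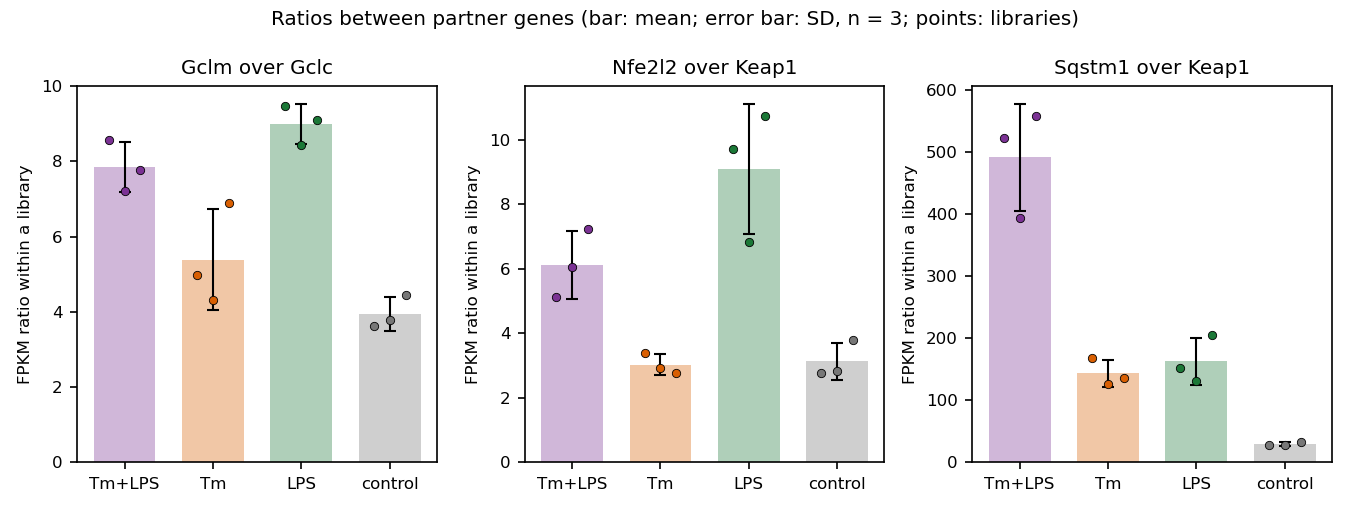
Ratio of FPKM between partner genes within a library (y axis, from 0), as means with SD (bars and error bars, n = 3) and libraries (points), for Gclm over Gclc, Nfe2l2 over Keap1 and Sqstm1 over Keap1. The Gclm over Gclc ratio is 7.22 to 8.56 in the Tm+LPS libraries and 8.42 to 9.47 in the LPS libraries, against 3.62 to 4.46 in controls.

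In the thioredoxin and peroxiredoxin system, Txnrd1 rose most. Txnrd1 (ENSMUSG00000020250.10, chromosome 10, 82833951 to 82897712, plus strand), the cytosolic thioredoxin reductase, had 203, 207 and 212 FPKM with tunicamycin plus LPS. It had 101, 123 and 116 FPKM with tunicamycin, 161, 151 and 194 FPKM with LPS, and 72.4, 67.1 and 70.2 FPKM in controls. No 2 groups overlapped, in the order both agents, LPS, tunicamycin and control from the top. LPS against control gave a 2.38-fold rise (log2 1.25 ± 0.10, adjusted p = 9.7e-08), and tunicamycin against control a 1.61-fold rise (log2 0.69 ± 0.10, adjusted p = 8.66e-05). Both agents against tunicamycin gave a 1.82-fold rise (log2 0.87 ± 0.10, adjusted p = 1.38e-05). Tunicamycin added to LPS gave log2 0.30 ± 0.10 (adjusted p = 0.0374). That last call was lost in 8 of 21 alternatives, including leaving out LPS replicate 1 (0.110) or 2 (0.167) or replicate 1 (0.0557), 2 (0.0669) or 3 (0.0925) of tunicamycin plus LPS. Eid3, a gene on the same strand within it, had at most 3.47 FPKM.

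Srxn1 (ENSMUSG00000032802.8, chromosome 2, 152105516 to 152111376, plus strand), sulfiredoxin, which repairs over-oxidised peroxiredoxins, had 179, 149.9 and 134 FPKM with tunicamycin plus LPS. It had 105, 109 and 118 FPKM with tunicamycin, 128, 116 and 128 FPKM with LPS, and 113, 103 and 111 FPKM in controls. The libraries with both agents were above all others, and tunicamycin overlapped both LPS and controls. Neither agent alone gave a call (log2 0.02 ± 0.10 for tunicamycin and 0.19 ± 0.10 for LPS, adjusted p = 0.912 and 0.267). Both agents against control gave a 1.40-fold rise (log2 0.49 ± 0.10, adjusted p = 0.00133), and its interaction did not pass (log2 0.28 ± 0.15, adjusted p = 0.403). Against tunicamycin the difference was log2 0.47 ± 0.10 (adjusted p = 0.0054), lost with quantile normalization (0.106). Against LPS it was log2 0.30 ± 0.10 (adjusted p = 0.0398), lost in 10 of 21 alternatives, of which 7 left out 1 library. These were LPS replicates 1 to 3 (adjusted p = 0.0632, 0.140 and 0.0612), replicate 1 (0.175) or 2 (0.0568) of tunicamycin plus LPS, control replicate 3 (0.0518) and tunicamycin replicate 2 (0.0531).

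Prdx1 (ENSMUSG00000028691.12, chromosome 4, 116685544 to 116700822, plus strand), an abundant peroxiredoxin that reduces hydrogen peroxide, had 3121, 1896 and 2212 FPKM with tunicamycin plus LPS. It had 2098, 2348 and 2436 FPKM with tunicamycin, 3176, 3231 and 2919.98 FPKM with LPS, and 2654, 2859 and 2781 FPKM in controls. Replicate 1 with both agents stood at the level of the LPS libraries and the other 2 within or below the tunicamycin range. The tunicamycin libraries were all below controls, but the difference did not pass (log2 -0.27 ± 0.13, adjusted p = 0.126). It passed without replicate 1 of tunicamycin plus LPS, which changes only the shared spread (0.02), and in the fit to those 6 libraries (0.0218). Both agents against LPS gave log2 -0.40 ± 0.13 (adjusted p = 0.0326), lost in 8 of 21 alternatives, including leaving out LPS replicate 1 (0.0842) or 2 (0.0974) or replicate 2 (0.150) or 3 (0.108) of tunicamycin plus LPS. Both agents against control gave log2 -0.23 ± 0.13 (adjusted p = 0.179), which passed with quantile normalization (log2 -0.31, adjusted p = 0.00882) and without replicate 1 of tunicamycin plus LPS (log2 -0.43, adjusted p = 0.00183).

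Nqo1 (ENSMUSG00000003849.8, chromosome 8, 107388225 to 107403206, minus strand), the quinone reductase that is the usual reporter of NRF2 activity, was the lowest of the 10. It had 6.37, 5.29 and 5.43 FPKM with tunicamycin plus LPS, 5.04, 4.25 and 4.49 FPKM with tunicamycin, 4.67, 5.02 and 2.30 FPKM with LPS, and 5.05, 1.56 and 3.79 FPKM in controls. The libraries with both agents were above all others, and the remaining groups overlapped. By mean FPKM it ranked between place 6603 and 7640 of 10311 genes in the 4 groups. Both agents against control gave log2 0.67 ± 0.29 (adjusted p = 0.0793). This passed without control replicate 1 (log2 0.93, adjusted p = 0.0249).

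For tunicamycin plus LPS against LPS, 5 of the 10 genes rose (Sqstm1, Gclc, Gclm, Txnrd1 and Srxn1), 2 fell (Nfe2l2 and Prdx1) and 3 did not pass, where 28.9% of all genes passed, 13.8% higher and 15.1% lower. The median was log2 0.30, against 0.0024 over all genes. Of these 7 calls, Sqstm1, Nfe2l2, Gclc and Gclm passed in every alternative run, and the count was 4 in the fit to those 6 libraries, with no trend in the variance, without LPS replicate 1 or 2, and without replicate 2 of tunicamycin plus LPS. For tunicamycin plus LPS against tunicamycin, 5 rose (Sqstm1, Nfe2l2, Txnrd1, Srxn1 and Gsr), 1 fell (Gclc) and 4 did not pass, where 15.7% of all genes passed (8.69% higher and 7% lower). Of all these calls 55.4% were higher, or 44.9% with quantile normalization. Here the median was log2 0.29, against -0.0085 over all genes. Both comparisons use the same libraries with tunicamycin plus LPS.

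**Figure D4:**
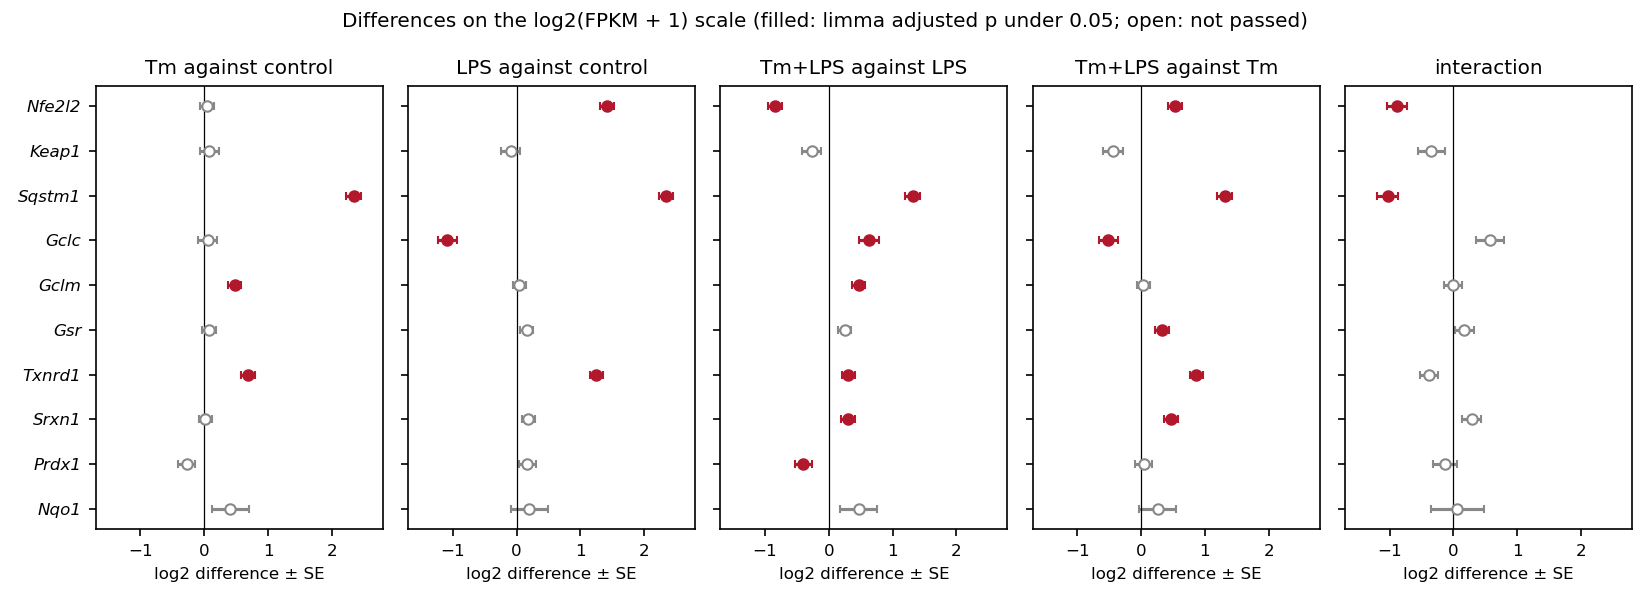
Difference ± SE on the log2(FPKM + 1) scale (x axis) for each gene (rows) in 5 comparisons, filled where the limma adjusted p was under 0.05. Sqstm1 is to the right in the first 4 panels, Nfe2l2 is at log2 1.42 with LPS and at -0.84 for both agents against LPS, and both are to the left in the interaction.

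Across the 12 libraries, likeness of pattern was measured as the root mean square difference of log2(FPKM + 1) after centring each gene on its mean, for the 4 genes whose group means spanned at least 1. Nearest to Sqstm1 were Slc2a6, a sugar transporter gene (0.27), and Fas, a death receptor gene (0.28). Slc2a6 averaged 275.0 FPKM with both agents, 149 with tunicamycin, 158 with LPS and 27.5 FPKM in controls. Fas averaged 87.9, 35.6, 50.7 and 5.96 FPKM in the same order. Nearest to Txnrd1 were Stx6, a syntaxin of the trans-Golgi network (0.13), and Ncf1, the p47 subunit of the phagocyte NADPH oxidase (0.14). Nearest to Nfe2l2 were Tet2, a methylcytosine dioxygenase gene (0.18), and Zbtb32, a zinc finger gene (0.19). Both were low, at 2.89 and 1.56 FPKM with LPS and 0.352 and 0.0688 FPKM in controls. The added 1 FPKM shrinks the change of such low genes, so their likeness to Nfe2l2 holds on that scale only. Nearest to Gclc were Tcf12, a helix-loop-helix transcription factor gene (0.17), and Arid1b, a chromatin remodeller subunit (0.18).

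Lists of related genes placed these 10 in the wider pathway. For tunicamycin against control the median was log2 0.27 for regulators, -0.19 for glutathione genes, 0.07 for thioredoxin and peroxide genes, -0.36 for NADPH supply, -0.08 for detoxification and export, -0.29 for heme and iron, and 0.24 for the NADPH oxidase, against 0.03 over all genes. For LPS against control the 7 medians lay between log2 -0.13 and 0.30, against 0.0022 over all genes. The shares called in each list are set below beside 34.5% of all genes for tunicamycin, 18.4% for LPS and 28.9% for both agents against LPS, in that order. Among 10 regulators of NRF2, of which 9 were tested, 2 rose and 2 fell with tunicamycin against control (44.4%, 22.2% and 44.4% called). Nfe2l1, the gene of the related factor NRF1, averaged 178 ± 5.48 and 150.2 ± 14.1 FPKM with tunicamycin plus LPS and tunicamycin, against 51.9 ± 6.1 FPKM with LPS and 30.6 ± 3.29 FPKM in controls. It rose 4.79-fold with tunicamycin (log2 2.26 ± 0.11, adjusted p = 3.12e-10), where Nfe2l2 did not pass. Of the small MAF partners, Mafk rose with tunicamycin (log2 1.09 ± 0.16, adjusted p = 8.66e-05), and Maff rose with LPS at a low level (2.22 ± 1.22 against 0.316 ± 0.197 FPKM, log2 1.24 ± 0.27, adjusted p = 0.00355). Mafg averaged 19.9 ± 1.05 FPKM with both agents, 10.5 ± 1.77 FPKM with tunicamycin, 14.8 ± 1.03 FPKM with LPS and 14.4 ± 1.75 FPKM in controls. It was lower with tunicamycin against control (log2 -0.42 ± 0.15, adjusted p = 0.0418) and higher with both agents against tunicamycin (log2 0.87 ± 0.15, adjusted p = 0.000784). Its interaction (log2 0.83 ± 0.22, adjusted p = 0.0452) was lost in 12 of 20 alternatives, among them the replicate block (0.0623) and 10 that left out 1 library (adjusted p = 0.0575 to 0.125). Rbx1, a RING subunit of the KEAP1 ligase, was the other fall with tunicamycin (log2 -0.77 ± 0.12, adjusted p = 0.000175). For tunicamycin plus LPS against LPS, 3 rose and 1 fell. They were Nfe2l1, Mafk, Rbx1 and Gsk3b, a kinase that marks NRF2 for KEAP1-independent degradation, which rose 2.03-fold (log2 1.02 ± 0.18, adjusted p = 0.000492). With LPS alone 2 rose, Maff and Nfe2l1, and 0 fell.

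Of 17 tested glutathione genes, 5 rose and 6 fell with tunicamycin, 2 rose and 0 fell with LPS, and 3 rose and 4 fell with both agents against LPS (64.7%, 11.8% and 41.2% called). Slc7a11, the cystine transporter that feeds glutathione synthesis and is a target of NRF2 and of ATF4, averaged 38.7 ± 2.47 FPKM with both agents, 7.06 ± 0.225 FPKM with tunicamycin, 23.1 ± 4.15 FPKM with LPS and 1.53 ± 0.711 FPKM in controls. Its order of groups was thus that of Txnrd1, and its interaction did not pass (log2 -0.98 ± 0.29, adjusted p = 0.075). Chac1, which degrades glutathione and is an ATF4 target, averaged 47.0 ± 3.24 FPKM with both agents and 31.4 ± 4.17 FPKM with tunicamycin, against 0.384 ± 0.393 FPKM with LPS and 1.19 ± 0.683 FPKM in controls. Glrx, glutaredoxin, fell 4.58-fold with tunicamycin (log2 -2.20 ± 0.13, adjusted p = 2.16e-09), and Mgst1, a microsomal glutathione transferase, 1.92-fold with both agents against LPS (log2 -0.94 ± 0.16, adjusted p = 0.000376).

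Of 16 thioredoxin and peroxide genes, 4 rose and 5 fell with tunicamycin and 1 rose and 0 fell with LPS, while 1 rose and 4 fell with both agents against LPS (56.2%, 6.25% and 31.2% called). Sod2, mitochondrial superoxide dismutase and a known NF-kB target, was the gene that rose in all 3, and averaged 144 ± 36.5 FPKM with both agents, 92.9 ± 6.64 FPKM with tunicamycin, 78.3 ± 20.6 FPKM with LPS and 24.3 ± 2.44 FPKM in controls. Txn1, thioredoxin, the substrate of the Txnrd1 product, fell 1.98-fold with tunicamycin (log2 -0.98 ± 0.15, adjusted p = 7.27e-05). It averaged 109 ± 28.9 and 107 ± 12.5 FPKM with tunicamycin plus LPS and tunicamycin, against 225 ± 19.4 FPKM with LPS and 211 ± 5.68 FPKM in controls. All 7 NADPH supply genes were tested, and 0 rose and 4 fell with tunicamycin (57.1%, 0% and 28.6% called), among them Tkt, transketolase (log2 -0.46 ± 0.10, adjusted p = 0.00185). With both agents against LPS 2 fell, G6pdx, the first enzyme of the pentose phosphate pathway (log2 -0.51 ± 0.13, adjusted p = 0.00671), and Idh1 (log2 -0.68 ± 0.11, adjusted p = 0.000294). With LPS alone limma passed 0 of these 7, and 0 had an unadjusted p under 0.05.

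Of 13 detoxification and export genes, 3 rose and 4 fell with tunicamycin, 1 rose and 0 fell with LPS, and 3 rose and 3 fell with both agents against LPS (53.8%, 7.69% and 46.2% called). Akr1b8, an aldo-keto reductase, fell 1.81-fold with tunicamycin (log2 -0.86 ± 0.16, adjusted p = 0.000733), and Nqo2, a relative of Nqo1, 1.62-fold (log2 -0.69 ± 0.17, adjusted p = 0.00547). The 1 rise with LPS was Ptgr1 (log2 0.40 ± 0.13, adjusted p = 0.0337), a reductase of reactive aldehydes and prostaglandins, and it was lost with quantile normalization, in the fit to those 6 libraries, and without control replicate 1 or any 1 of the LPS replicates (adjusted p up to 0.171). Among 8 heme and iron genes, 1 rose and 4 fell with tunicamycin, 0 rose and 3 fell with LPS, and 1 rose and 4 fell with both agents against LPS (62.5%, 37.5% and 62.5% called). Of the 3 falls with LPS, that of Ftl1, ferritin light chain (log2 -0.34 ± 0.10, adjusted p = 0.0306), was lost in 10 of 21 alternatives, including without any 1 of the 6 control and LPS libraries (adjusted p = 0.0513 to 0.112). Without control replicate 1 both Ftl1 (0.0769) and Hmox1 (0.0772) lost their calls. Hmox1, heme oxygenase 1, a widely used NRF2 target, averaged 316 ± 39.7 FPKM with both agents, 347 ± 34.7 FPKM with tunicamycin, 421 ± 92.7 FPKM with LPS and 580.4 ± 60.4 FPKM in controls. It fell 1.67-fold with tunicamycin (log2 -0.74 ± 0.14, adjusted p = 0.000581). Its fall with LPS (log2 -0.48 ± 0.14, adjusted p = 0.0224) was lost with no filter (0.0837), without trend (0.0811) and without control replicate 1 or 3 or LPS replicate 2 or 3 (adjusted p up to 0.132). Slc40a1, the iron exporter ferroportin, fell 2.75-fold with LPS (log2 -1.46 ± 0.13, adjusted p = 2.5e-07).

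Of 8 genes of the NADPH oxidase, the phagocyte source of superoxide, 4 rose and 3 fell with tunicamycin, 4 rose and 0 fell with LPS, and 2 rose and 1 fell with both agents against LPS (87.5%, 50% and 37.5% called). Ncf1 averaged 231 ± 19.7 FPKM with both agents, 109 ± 6.53 FPKM with tunicamycin, 175 ± 12.9 FPKM with LPS and 74.4 ± 2.64 FPKM in controls. Ncf4, its p40 subunit, rose 2.41-fold with tunicamycin (log2 1.27 ± 0.09, adjusted p = 3.72e-08). Cybb, the catalytic subunit, rose 1.67-fold with LPS (log2 0.74 ± 0.16, adjusted p = 0.00284) and 1.59-fold with tunicamycin (log2 0.67 ± 0.16, adjusted p = 0.00349).

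**Figure D5:**
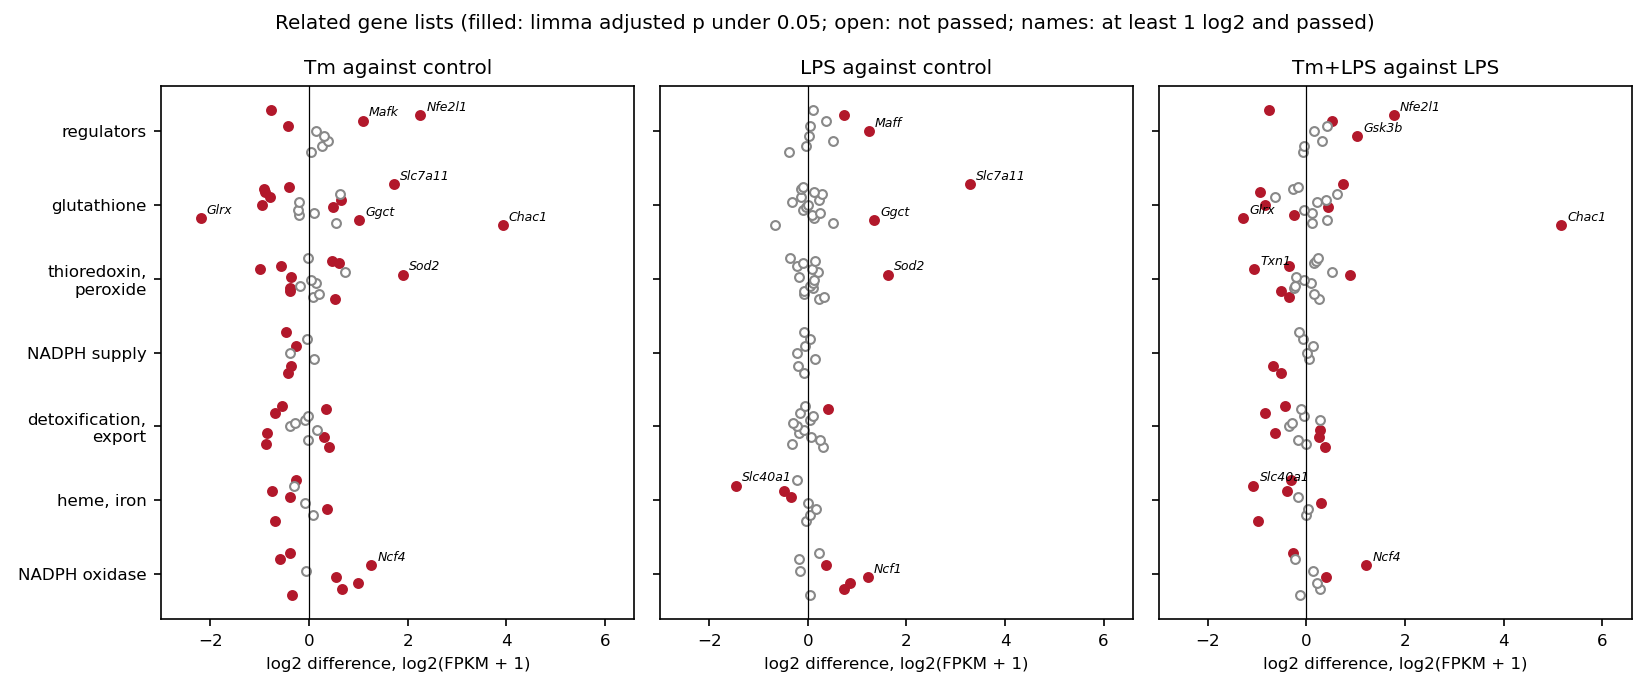
Difference on the log2(FPKM + 1) scale (x axis) of every tested gene of 7 related lists (rows), filled where the limma adjusted p was under 0.05, for tunicamycin and LPS against control and for both agents against LPS. Slc7a11 and Sod2 are to the right with either agent, and Chac1 is farthest right where tunicamycin was added.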

How the data were processed

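RNA sequencing of 12 libraries in 4 groups of 3 was analysed from the authors' deposited table of FPKM. Per the submitters' processing notes, reads were processed on the mm10 build by Cufflinks 2.2.1, SAMtools 0.1.19, Bowtie2 2.2.3 and TopHat2 2.0.13; the annotation, the strand setting and the scaling of libraries are not given in the sources used here. Median-of-ratios factors of the deposited values were 1.013 to 1.0193, and between 7.07% and 19% of genes below 0.3 FPKM shared the commonest ratio (within a bin of 0.04 on the log2 scale) of a library to control replicate 1, so counts were not recovered and precision is the spread between replicates. No 2 libraries were identical.

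The test used the 10311 genes that reached 1 FPKM in 3 or more libraries. Their log2(FPKM + 1) entered limma 3.58.1 under R 4.3.3 (lmFit, then eBayes with a variance trend), each group having 1 mean. There were 6 contrasts, and p-values were adjusted over all genes tested. The fit was tested on simulated data with known fold changes. Ratios, ranks and figures were computed with pandas 2.3.3, scipy 1.17.1 and matplotlib 3.10.9 in Python 3.11.15. Gene positions are GENCODE M21 on GRCm38, where 23310 symbols of the table matched.

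The 10 genes, the related lists and the marker lists were chosen with earlier results of these data known. All 10 are named with every value. From each related list up to 3 passing genes with the largest change per contrast could be named, and the 2 nearest patterns for each gene whose group means span at least 1. Mafg for tunicamycin against control, and Mafk for both agents against LPS, fall outside that rule and were named after their values were seen. Alternatives were quantile normalization, scaling by median of ratios, filtering at 5 FPKM or not at all, a pseudocount of 0.1, a block for the replicate number, a fit to the libraries of 1 contrast, no trend, a robust fit, and leaving out each library. Scaling by median of ratios could hardly change a call, because its factors were nearly equal (1.013 to 1.0193).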

Additional observations from a re-analysis of the deposited data

Results flagged for a closer look

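For 2 of the 10 genes the change with LPS differed between cells with and without tunicamycin, by the interaction term of the limma fit. The exposure time of the tunicamycin-only cells is not given, so a difference in exposure, if any, cannot be told apart from LPS here. For Nfe2l2 it was log2 -0.88 (SE 0.15, adjusted p = 0.00255): LPS changed it by log2 0.54 in tunicamycin-treated cells and by 1.42 in cells without tunicamycin. For Sqstm1 it was log2 -1.03 (SE 0.16, adjusted p = 0.0011), from log2 1.31 in tunicamycin-treated cells and 2.34 in cells without it, while on the FPKM scale LPS added more where tunicamycin was present. Both passed in all 20 alternatives, with adjusted p of up to 0.0246 for Nfe2l2 and 0.0234 for Sqstm1.

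The same term passed for 5 genes of the related lists. For Sod2 it was log2 -1.02 (adjusted p = 0.0301), with LPS changes of 0.60 in tunicamycin-treated cells and 1.62 without, and it was lost in 8 of 20 alternatives. Hvcn1, a proton channel gene, had log2 -0.78 (adjusted p = 0.0124), with 0.08 and 0.86, lost without trend (0.0514). Slc40a1 had log2 -0.77 (adjusted p = 0.029), with -2.23 and -1.46, lost in 7. Glrx had log2 0.92 (adjusted p = 0.00763), with 1.05 and 0.13, lost without trend (0.0508). Mafg had log2 0.83 (adjusted p = 0.0452), with 0.87 and 0.04, lost in 12. Leaving out 1 library accounts for 6 of the losses of Sod2, 6 of those of Slc40a1 and 10 of those of Mafg.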

How the results depend on the processing

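Of 60 tests of the 10 genes, 29 passed; 22 of these passed in every alternative and 7 were lost in some, while 6 others passed in some, and 0 calls changed sign. For tunicamycin plus LPS against LPS the number of the 10 that passed was 7, and 4 with only the libraries of the contrast and 4 without trend, where the cause was not tested, and 4 to 7 when leaving out 1 library. Leaving out 1 library gave 4 to 4 for LPS against control, 3 to 4 for tunicamycin, 4 to 6 for both agents against tunicamycin, 6 to 8 against control and 2 to 2 for the interaction. Over all genes, leaving out tunicamycin replicate 2 left 1064 calls of 1618 for both agents against tunicamycin, and leaving out tunicamycin replicate 3 left 229 of 347 for the interaction. Same-numbered libraries did not deviate together (r across genes -0.0391 to 0.0945 over 18 pairs). With 3 libraries per group this cannot show whether the numbers stand for shared animals or batches, which the sources used here do not give. With the replicate block the counts of the 10 were unchanged except 5 in place of 6 for both agents against tunicamycin. There Gsr was lost (adjusted p = 0.0513). Of 93 related-gene tests picked by the naming rule, 71 passed in every alternative, 22 were lost in some and 0 reversed. That rule took only passing genes with the largest changes, so these counts do not describe the related lists as a whole. Read depth is unknown, so the counting error of low genes such as Nqo1 could not be given.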
